A study of Saccharomyces cerevisiae with 12 samples.

Results

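The SUMO peaks of the lists labelled ubc9-6 were set directly against those of the lists labelled heat shock, without passing through the untreated WT lists. Members were all nuclear peaks of the 4 lists, 1906 in number, out of 3486 peaks in the 6 lists of the series. In Saccharomyces cerevisiae, chromatin bound by SUMO (the Smt3 protein) was recovered by immunoprecipitation and sequenced. The series has 12 samples, 6 SUMO immunoprecipitates and their inputs, with 2 replicates for each of 3 labels (untreated WT, untreated ubc9-6, and heat-shocked WT). By label, the ubc9-6 cultures carried a mutant SUMO-conjugating enzyme, built as tandem copies of the ubc9-1 allele at the UBC9 locus in the W303 background, and grew untreated at 30 °C. By label, the heat shock cultures were the unmodified W303a strain, moved from 30 °C to 37 °C for 12 min. The methods describe 1 ubc9-6 strain. The study calls the untreated ubc9-6 replicates independent. Nothing in the sources used here says so of the heat shock replicates, so p-values measure the spread between these samples, which may be technical.

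The labels of these 4 lists are in doubt. Of 41 genes of the heat-shock response, 14 (34.1%) had a peak in both lists labelled ubc9-6, and none had one in either list labelled heat shock. Peaks in both lists labelled ubc9-6 and neither labelled heat shock were also at 7 of 16 genes of glycolysis and ethanol formation (43.8%). Over all protein-coding genes other than those for ribosomal proteins, the share was 2.46% (144 of 5865). The ubc9-6 allele is known to lower sumoylation, yet the lists under that label held more peaks than those labelled heat shock, with 92 and 134 against 5 and 9 at promoters of protein-coding genes other than those for ribosomal proteins. The study reports that its mutant strain lost nearly all SUMO peaks at promoters of such genes. It adds that some peaks, particularly those at tRNA genes, were stable in that strain. In the lists compared here, tRNA peaks numbered 259 and 261 under the label ubc9-6 and 248 and 260 under the label heat shock. Whether the labels had been exchanged was not tested. The labels were kept as given, and each direction below holds for lists by their label, not for the mutant or for the treatment.

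SUMO is a small protein that is joined to lysines of other proteins, and Ubc9 is the conjugating enzyme of yeast. Many SUMO targets are chromatin proteins, among them subunits of RNA polymerase III and Rap1, a general regulatory protein that binds most ribosomal protein gene (RPG) promoters. tRNA genes are transcribed by RNA polymerase III, with TFIIIB bound just upstream of the gene and TFIIIC bound to the A and B boxes inside it. Heat-shock genes encode chaperones and are driven by Hsf1, which binds heat-shock elements, and by Msn2 and Msn4.

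The sequences below carry the contrasts described later. All are from the reference genome R64 (sacCer3) and are written 5′ to 3′ on the strand of the named gene. Names beginning with YNC are the systematic names of RNA genes. The first pair are tRNA-Glu genes with identical gene sequences but opposite differences between the labels, at chrIX:370357-370488 (plus strand) and chrV:177039-177170 (plus strand). Capitals mark the gene, after 60 bases of upstream DNA.
YNCI0011W: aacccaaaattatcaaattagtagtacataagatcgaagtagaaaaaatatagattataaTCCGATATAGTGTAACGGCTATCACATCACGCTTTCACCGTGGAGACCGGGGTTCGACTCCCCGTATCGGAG
YNCE0012W: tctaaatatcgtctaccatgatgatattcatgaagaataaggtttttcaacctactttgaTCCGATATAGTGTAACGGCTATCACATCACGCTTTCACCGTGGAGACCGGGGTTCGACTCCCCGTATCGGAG

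The next set shows tRNA genes whose summits moved between the labels, at chrVII:328523-328654 (plus strand), chrII:266318-266450 (plus strand) and chrIV:980974-981115 (minus strand). Capitals mark the bases from the most upstream to the most downstream summit of the 4 lists. The gene itself starts after the first 60 bases.
SOE1: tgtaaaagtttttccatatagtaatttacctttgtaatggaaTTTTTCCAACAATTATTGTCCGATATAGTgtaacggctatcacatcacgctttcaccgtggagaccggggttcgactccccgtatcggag
YNCB0007W: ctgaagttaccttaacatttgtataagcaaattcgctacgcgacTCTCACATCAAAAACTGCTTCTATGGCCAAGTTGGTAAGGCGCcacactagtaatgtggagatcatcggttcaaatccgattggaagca
YNCD0019C: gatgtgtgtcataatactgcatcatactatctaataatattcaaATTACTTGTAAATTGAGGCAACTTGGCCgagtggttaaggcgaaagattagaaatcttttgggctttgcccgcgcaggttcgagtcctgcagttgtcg

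RPG promoters are shown around their summits, the first pair held by all 4 lists and the second pair by the lists labelled ubc9-6 alone. They lie at chrVI:65111-65231 (minus strand), chrVI:221851-221971 (minus strand), chrXIII:146046-146166 (plus strand) and chrIV:117318-117438 (plus strand). Capitals mark the Rap1 core letters ACCCNNACA, searched on both strands, and RPS1B has none in this window.
RPL22B: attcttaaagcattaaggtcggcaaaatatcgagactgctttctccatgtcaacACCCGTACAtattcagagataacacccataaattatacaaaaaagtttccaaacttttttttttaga
RPL2A: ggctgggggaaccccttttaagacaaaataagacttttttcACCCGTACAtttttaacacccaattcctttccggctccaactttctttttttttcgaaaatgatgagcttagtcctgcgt
RPS1B: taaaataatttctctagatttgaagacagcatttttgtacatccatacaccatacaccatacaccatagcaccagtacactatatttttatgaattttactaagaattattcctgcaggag
RPL35A: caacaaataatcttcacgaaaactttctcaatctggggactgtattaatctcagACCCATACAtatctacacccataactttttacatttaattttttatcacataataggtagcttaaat

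The last set shows promoters of the heat-shock genes HSP104, at chrXII:88323-88522 (plus strand), and SSA4, at chrV:364289-364488 (plus strand), as 200-bp windows that begin 300 bases before the start codon. It also shows the region between GAL1 and GAL10 at chrII:278451-278729 (written on the plus strand), which was held by the lists labelled heat shock alone. Capitals mark heat-shock element cores (TTCNNGAA or GAANNTTC, both strands, which may overlap) in the first pair. In the region of the galactose genes they mark CGG and CCG 11 bases apart, the letters of Gal4 sites.
HSP104: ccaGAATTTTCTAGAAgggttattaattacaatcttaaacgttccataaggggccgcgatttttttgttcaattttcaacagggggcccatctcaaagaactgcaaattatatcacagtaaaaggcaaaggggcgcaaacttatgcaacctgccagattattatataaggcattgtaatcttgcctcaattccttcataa
SSA4: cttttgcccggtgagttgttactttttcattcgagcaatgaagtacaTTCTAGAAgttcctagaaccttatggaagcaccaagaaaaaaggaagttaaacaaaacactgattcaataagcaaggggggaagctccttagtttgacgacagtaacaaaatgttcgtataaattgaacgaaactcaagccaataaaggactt
GAL1-GAL10: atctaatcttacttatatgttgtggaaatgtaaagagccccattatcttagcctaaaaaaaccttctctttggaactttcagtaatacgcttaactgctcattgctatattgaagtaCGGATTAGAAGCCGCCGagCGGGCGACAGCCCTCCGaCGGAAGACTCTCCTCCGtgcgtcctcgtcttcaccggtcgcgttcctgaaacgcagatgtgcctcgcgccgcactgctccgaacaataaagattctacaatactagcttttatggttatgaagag

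The lists labelled ubc9-6 held 600 and 709 nuclear peaks, and the lists labelled heat shock held 278 and 319. The means were 654.5 ± 77.1 and 298.5 ± 29.0 (SD, n = 2), and the labels did not overlap, with an exact two-sided permutation p of 0.33, the smallest that 2 against 2 libraries allow. The untreated WT lists held 714 and 842. Depth was similar across the 4 lists, with a background of 114 to 140 fragments and a median of 583 to 740 fragments at the summit. The counting error of a median summit was thus 3.68% to 4.14%, which covers counting only. A peak missing from a list means that it did not pass the authors' q-value limit of 0.05 there, not that SUMO was absent.

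By gene class, tRNA peaks were similar in number under both labels, and the other classes were fewer under the label heat shock. Peaks at tRNA genes numbered 259 and 261 under the label ubc9-6 and 248 and 260 under the label heat shock. RPG peaks numbered 118 and 120 against 5 and 22. Peaks at promoters of other protein-coding genes (non-RPG) were fewer by the counts given above, and peaks at other noncoding genes numbered 38 and 43 against 11 and 14. tRNA genes thus made up 43.2% and 36.8% of the lists labelled ubc9-6 and 89.2% and 81.5% of those labelled heat shock. Each of these differences other than that in tRNA peak number (p = 0.667) had the exact permutation p of 0.33.

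**Figure D1:**
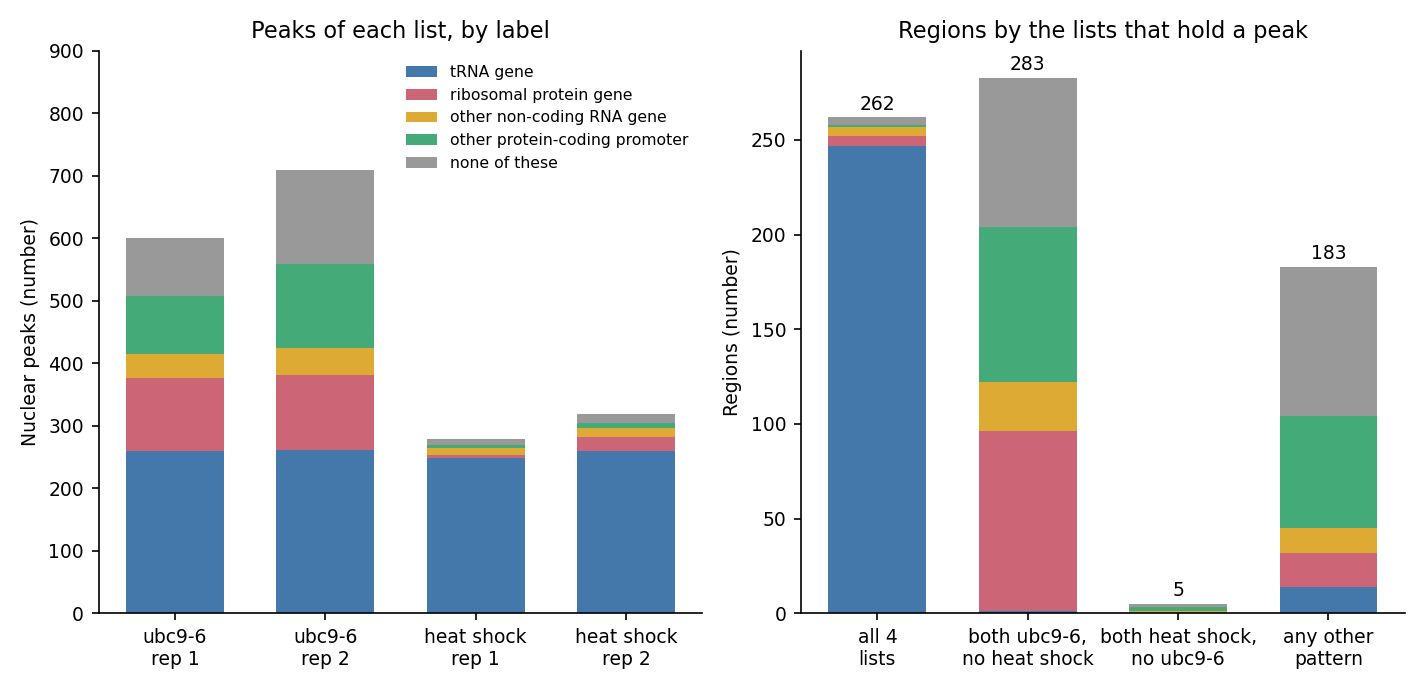
Left, nuclear peaks (number) of each list by gene class. Right, regions (number) by the lists that hold a peak, in the same class colours. The tRNA part of the bars is nearly level, at 248 to 261 peaks, while the 283 regions held by both lists labelled ubc9-6 alone hold 95 RPG regions and 1 tRNA region.

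Peaks of the 4 lists that overlapped by 1 bp or more formed 733 regions. Of these, 262 (35.7%) had a peak in all 4 lists, 283 (38.6%) in both lists labelled ubc9-6 and neither labelled heat shock, and 5 (0.682%) in both lists labelled heat shock and neither labelled ubc9-6. The lists labelled heat shock were thus nearly contained in the others. Of 269 regions with a peak in both of them, 262 (97.4%) had a peak in both lists labelled ubc9-6, whereas these 262 were 45.2% of the 580 regions held by both lists labelled ubc9-6. The remaining 183 regions had a mixed pattern, with 124 of them in ubc9-6 replicate 2 alone and 34 in all lists but heat shock replicate 1. When each list was limited to its best 278 peaks by q-value, 163 regions were in all 4 lists, 94 were one-sided to ubc9-6 and 73 to heat shock. The containment therefore depended on list length. The one-sided RPG regions numbered 85 at this length, and which of them were the same regions was not counted.

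tRNA regions were shared. Of 262, 247 (94.3%) were in all 4 lists, against 35.7% of all regions, and 12 more were missing from heat shock replicate 1 alone. Those 12 had weak peaks in heat shock replicate 2, with fold enrichments over the local input background of 1.52 to 3.44. The single tRNA region one-sided to ubc9-6 was at YNCG0040C, a tRNA-Leu gene, with fold enrichments of 3.39 and 4.32.

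RPG regions divided by label. Of 118, 95 (80.5%) were one-sided to ubc9-6, against 38.6% of all regions, 5 were in all 4 lists and none was one-sided to heat shock. By gene, 59 of 81 large-subunit and 39 of 56 small-subunit genes were one-sided to ubc9-6, so both subunits took part. The best ranked was RPS1B (chrXIII:145752-146516), with fold enrichments of 16.0 and 20.8 at ranks 11 and 10. RPL35A (chrIV:116977-117820) followed with 15.6 and 20.9, RPL42B with 13.8 and 19.7, and RPS7A with 12.3 and 16.0. These were among the strongest peaks of the lists labelled ubc9-6, not peaks near the calling limit.

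A further 17 RPG regions were missing from heat shock replicate 1 alone. They ranked high under the label ubc9-6, with median percentiles of 95.8 and 96.5, and low in heat shock replicate 2, with a median percentile of 8.33 and fold enrichments of 1.47 to 2.72. RPS0B, a small-subunit gene chosen after its values were seen, had 16.9 and 23.3 against 2.72. These RPG regions thus stood high under one label and near the calling limit under the other. Without heat shock replicate 2, 112 RPG regions were one-sided to ubc9-6, and when each summit was given to its nearest gene instead of by class priority, 36 were.

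The Rap1 core was in 58 of 118 RPG windows of 121 bp (49.2%), against 68 of all 733 windows (9.28%). By a motif search, the study found a match to the Rap1 consensus in nearly all of its RPG peak sequences. A window without these exact letters may thus still hold a Rap1 site. It was in 5 of 5 RPG windows shared by all 4 lists and in 47 of the 95 one-sided to ubc9-6 (49.5%). The summits of the one-sided RPGs lay a median of 321 and 317 bp before the start codon.

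Among non-RPG regions, 82 of 144 (56.9%) were one-sided to ubc9-6, 2 to heat shock and 1 was in all 4 lists. The best ranked were TEF2, which encodes a translation elongation factor, with fold enrichments of 5.90 and 7.89, and TDH3, a glyceraldehyde-3-phosphate dehydrogenase gene, with 5.08 and 6.29. SWR1, the ATPase of a histone exchange complex, had 4.93 and 6.60. These were lower than the RPG values above. Without ubc9-6 replicate 1, 130 non-RPG regions were one-sided, and at a fold enrichment of 2 or more 36 were. Of 16 genes listed for glycolysis and ethanol formation, 7 were one-sided to ubc9-6 (FBA1, TDH3, PGK1, ENO2, CDC19, PDC1 and ADH1), against 144 of all 5865 non-RPG genes (2.46%). Their fold enrichments were 1.84 to 5.08 in replicate 1. Of 11 translation factor genes, TEF1 and TEF2 were one-sided, and of 10 mating genes only MFA2, a pheromone gene, with 1.60 and 1.48. A promoter peak can count for both neighbours of a shared intergenic region, so some non-RPG genes, such as TEM1 beside RPS1B, owe their count to an RPG.

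Other noncoding genes gave 26 of 45 regions (57.8%) one-sided to ubc9-6 and 5 in all 4 lists. RPR1, the RNA of RNase P and a polymerase III product, had 11.1 and 12.4 under the label ubc9-6 and no peak in the others. Of 82 small nucleolar and nuclear RNA genes, 27 (32.9%) were one-sided to ubc9-6 and 4 were in all 4 lists. Over all 136 noncoding genes, which include these, 30 (22.1%) were one-sided to ubc9-6. Among the one-sided regions were those of SNR45, at 4.33 and 4.13, and SNR37, at 2.56 and 2.69.

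All 16 centromeres, a set chosen after the values were seen, had a region within 250 bp that was one-sided to ubc9-6. The one-sided share was 38.6% over all regions, 56.9% over non-RPG regions and 48.2% over regions in no gene class. At the centromeres, fold enrichments reached 5.91 in replicate 1 and ran from 1.76 to 6.55 in replicate 2. CENVI was the weakest in both replicates, and its value was lower in replicate 1 than in replicate 2. Neither list labelled heat shock had a peak at any of the centromeres. CENIV (chrIV:449025-450394) had the largest values, 5.91 and 6.55, and CENXIII followed with 3.59 and 4.54. Both untreated WT lists held a peak at each of the 16. Peaks at chromosome ends were mostly one-sided to ubc9-6. Of the 283 regions one-sided to ubc9-6, 30 had their summit in an annotated telomere, against 2 of the 262 shared regions and 47 of all 733. The shared regions were nearly all tRNA regions, however, and among regions in no gene class 25 of 79 one-sided to ubc9-6 and 2 of 4 shared had such a summit. Reads from chromosome ends are repeated, so these positions are uncertain.

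The 5 regions one-sided to heat shock were weak. The strongest in replicate 1 was the one printed above between GAL1 and GAL10, genes of galactose use, with fold enrichments of 2.02 and 2.28. Its 279-bp sequence held 3 copies of CGG and CCG 11 bases apart. This spacing was found in 74 of 6001 promoter windows of 200 bp (1.23%), which are shorter and were placed by the start codon, not by a peak. AAD3, an aryl-alcohol dehydrogenase gene near an end of chromosome III (chrIII:313566-313874), had 1.78 and 2.34. ADH7, an alcohol dehydrogenase gene on the same arm (chrIII:308721-308994), had 1.63 and 1.83. The others were a long terminal repeat at chrIII:84145-84418 (1.66 and 1.23) and a region next to YMR317W at chrXIII:908277-908551 (1.62 and 1.41). All 5 ranked between 245 and 273 of 278 and between 269 and 317 of 319, so they stood near the bottom of their lists. Without heat shock replicate 1, 15 regions were one-sided to heat shock.

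Some heat-shock genes had peaks under the label ubc9-6, and none had a peak under the label heat shock. Of 41, 14 (34.1%) were one-sided to ubc9-6, 5 more had a peak in 1 list labelled ubc9-6, and 22 had none in the 4 lists. The one-sided share was 2.46% over all non-RPG genes, of which 93.0% had no peak in the 4 lists. It was 43.8% in the list for glycolysis and ethanol formation, so it was not particular to heat-shock genes. HSP26, a small heat-shock protein gene, had fold enrichments of 2.26 and 3.79 under the label ubc9-6. HSP82, the inducible Hsp90 gene, had 3.41 and 3.58, and HSP104, the disaggregase gene, had 1.96 and 2.28. Both lists labelled heat shock lacked a peak at these 3 genes.

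SSA4, a stress-inducible Hsp70 gene, had 1.69 and 1.86 under the label ubc9-6. HSP78, a mitochondrial disaggregase gene, had 1.57 and 1.97, and KAR2, the Hsp70 of the endoplasmic reticulum, had 2.40 and 2.21. Of the 144 non-RPG genes one-sided to ubc9-6, 7 had no peak in either untreated WT list. Of these, 6 were heat-shock genes (HSP26, HSP104, SSA4, HSP78, STI1 and HSP10) and the other, named after its values were seen, was LYS9, a lysine synthesis gene, with 2.53 and 2.89. The untreated WT lists held peaks at 9 and 5 of the 41 genes. The heat-shock gene peaks under the label ubc9-6 were weak: 4 of the 14 genes remained one-sided at a fold enrichment of 2 or more. None did among the best 278 peaks of each list.

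A heat-shock element core was in the promoter window of 22 of the 41 genes (53.7%) and of 969 of 6001 promoters (16.1%). It was in 9 of the 14 one-sided genes, in 5 of the 6 without an untreated WT peak, and in 10 of the 22 genes with no peak in the 4 lists. The printed HSP104 window holds 2 overlapping cores and that of SSA4 holds 1. These windows ran from -300 to -101 bp of the start codon and were not centred on summits. Under the label ubc9-6 the summits lay outside them at HSP104 (-84 and -10 bp) and SSA4 (-66 and -80 bp). At HSP78 they lay inside (-204 and -255 bp). In 121-bp windows around summits, the core was in 5 of 82 non-RPG regions one-sided to ubc9-6 (6.1%), against 76 of all 733 regions (10.4%).

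**Figure D2:**
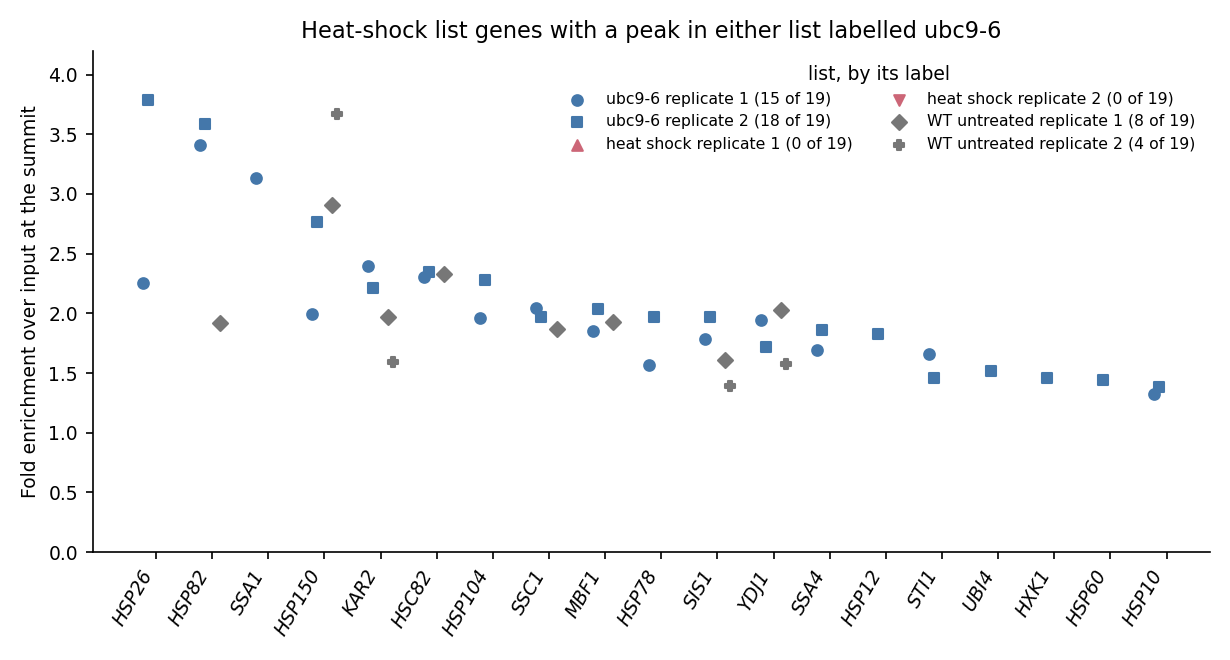
Fold enrichment over input at the summit for the 19 of 41 heat-shock genes with a peak in either list labelled ubc9-6, with 1 point per list and none where a list has no peak. The lists labelled ubc9-6 have points at 15 and 18 of these genes, and the lists labelled heat shock have none.

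For the 262 regions in all 4 lists, fold enrichment was compared after centring each list on its median. The lists labelled heat shock were higher at 102 regions (38.9%) and lower at 107 (40.8%), by limma with Benjamini-Hochberg adjustment over all 262, threshold 0.05. The centred values of the 2 labels did not overlap at 235 regions, a split whose exact permutation p is 0.33 at any single region. Centring removed a mean difference of 0.12 on the log2 scale between the medians of the labels. It also removed larger differences between lists of the same label. The list medians were 2.36 and 2.61 under the label ubc9-6. Of the 4 lists, heat shock replicate 1 had the lowest median and heat shock replicate 2 the highest, 2.90. Without centring, 46 regions were higher and 28 lower, so the number of calls depended on this step. The share of calls that were higher was 48.8% with centring and 62.2% without. Across the regions, fold enrichment had a Spearman rho of 0.937 and 0.993 between lists of a label and of 0.472 to 0.485 between labels, which describes regions of the same lists and is no test.

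The regions without a tRNA gene fell or did not pass the test. Of 15, 12 were lower in the lists labelled heat shock and none was higher. All 5 RPG regions were among them. RPL22B had fold enrichments of 21.0 and 27.9 under the label ubc9-6 (rank 2 in both) against 2.47 and 3.45 (ranks 232 and 236). The log2 difference was -3.17 (SE 0.0849, adjusted p = 1.35e-10). RPL2A had 16.6 and 23.8 against 2.09 and 2.43, a log2 difference of -3.26 (SE 0.126, adjusted p = 1.86e-09). RPL23B, RPL27B and RPS11B had log2 differences of -3.12, -2.87 and -2.81. These RPGs thus went from the head of one pair of lists to the tail of the other.

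Polymerase III genes outside the tRNA class fell too. SNR52, a small nucleolar RNA gene with its own polymerase III promoter, had 17.2 and 18.02 against 3.07 and 4.86, a log2 difference of -2.30 (adjusted p = 1.04e-09). SNR6, which encodes U6 spliceosomal RNA, had 6.48 and 7.003 against 2.60 and 3.95, a log2 difference of -1.19 (adjusted p = 1.44e-07). SCR1, the RNA of the signal recognition particle, had 4.64 and 5.55 against 2.73 and 4.73, a log2 difference of -0.62 that separates the labels only after centring. A 5S ribosomal RNA gene, RDN5-6, had 3.45 and 4.72 against 2.39 and 3.56, a log2 difference of -0.59, and also separates only after centring. Apart from these genes, the rDNA array region (chrXII:451442-468900) had 4.72 and 5.55 against 1.24 and 1.42, a log2 difference of -2.06. Its best summit was at an external transcribed spacer, and read placement in this repeat is uncertain. The widest peak was 17443 and 17459 bp in the lists labelled ubc9-6 and 5053 and 7381 bp in those labelled heat shock. Peaks compared across this region thus need not lie at the same place.

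**Figure D3:**
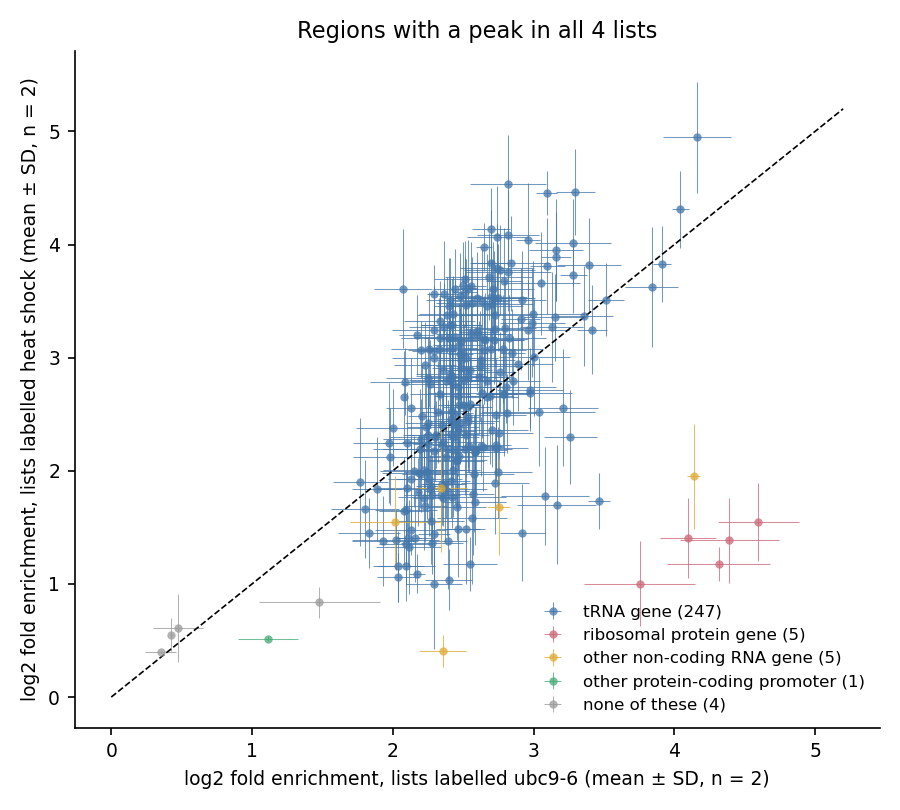
Mean log2 fold enrichment under the label ubc9-6 (horizontal) and heat shock (vertical) for the 262 regions in all 4 lists, uncentred, with bars of 1 SD (n = 2) and a dashed line of equality. The 247 tRNA regions lie on both sides of the line, and the 5 RPG regions lie far below it.

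tRNA regions moved both ways, with 102 of 247 higher, 95 lower and 50 not past the threshold. SUF4, a tRNA-Gly gene, had the largest rise, from 6.18 and 8.07 under the label ubc9-6 to 18.8 and 28.7 under the label heat shock. The log2 difference was 1.60 (SE 0.0789, adjusted p = 1.86e-08). Its rank was 126 and 116 against 3 and 2, but the lists labelled heat shock are shorter and lack most RPG peaks, so rank can rise there with no change at the gene. YNCC0014W, a tRNA-Thr gene, went from 3.81 and 4.65 to 9.44 and 15.8, a log2 difference of 1.42. The 10 largest rises were all tRNA regions, from 1.07 to 1.60, and of the 10 largest falls 3 were (YNCE0012W, SUP61 and YNCL0034W, at -1.85, -1.58 and -1.58). YNCJ0008W kept a place near the head of every list, with 15.9, 20.1, 24.2 and 39.3.

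By amino acid, tRNA-Gly regions had a median log2 difference of 0.72 (14 of 20 higher) and tRNA-Glu regions 0.63 (11 of 16 higher), against -0.01 over all 247. At the other end, tRNA-Pro regions had a median of -0.66 (7 of 11 lower), tRNA-Ile regions -0.50 (8 of 13 lower), tRNA-Trp regions -0.49 (6 of 6 lower) and tRNA-Leu regions -0.46 (11 of 19 lower). The tRNA-Leu genes differed by kind, with a median of -0.77 at the 11 with an intron and 0.17 at the 8 without. Among 242 regions with 1 tRNA gene, the 52 whose gene has an intron had a median of -0.46 (5 higher, 35 lower), and the 190 without had 0.18 (94 higher, 59 lower). Within the amino acids with both kinds of gene, the medians were -0.72 over 30 regions and -0.10 over 47. These are counts over regions of the same libraries, with no test of the groups.

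Copies of 1 gene sequence often differed in direction. The 242 genes had 64 distinct sequences, and 35 of these had identical copies, 213 regions in all. In 21 of the 35 families some copies were called higher and others lower, in 7 the calls were all higher, in 6 all lower, and 1 had none. All 6 copies of the tRNA-Trp gene were lower, with a range of 0.28 on the log2 scale, and all 3 copies in the tRNA-Gly family of SUF4 were higher. The median range within a family was 1.14. The widest was a tRNA-Glu family of 13 copies, whose ends are the pair printed first. YNCE0012W had 11.5 and 10.6 under the label ubc9-6 against 2.94 and 3.76 under the label heat shock, a log2 difference of -1.85 (adjusted p = 1.25e-07). YNCI0011W had 6.08 and 6.94 against 14.8 and 21.1, a log2 difference of 1.32 (adjusted p = 6.49e-08). Their genes are identical over 72 bases, and 17 of the 60 upstream bases are equal (28.3%). How reads inside identical copies were placed is not given in the sources used here, so values of single copies are uncertain.

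**Figure D4:**
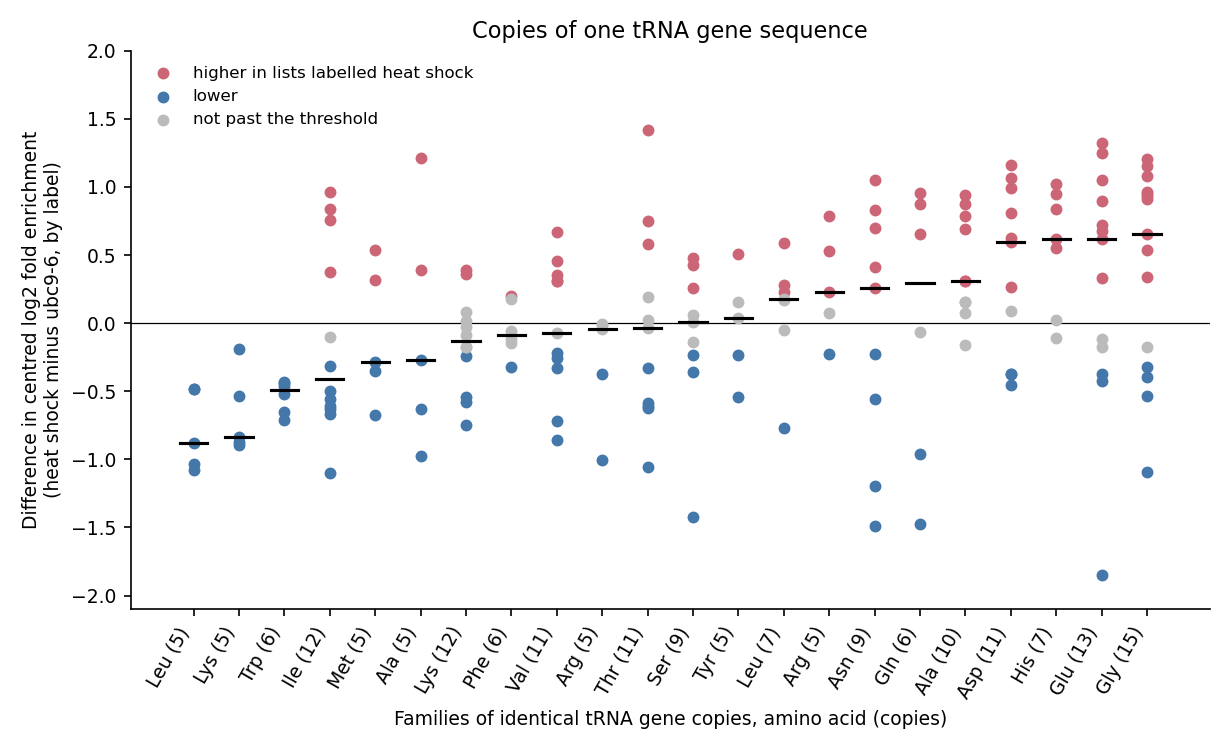
Difference in centred log2 fold enrichment (heat shock minus ubc9-6, by label) for each copy in the 22 families with 5 or more identical tRNA gene copies, with a bar at each family's median. Most families hold copies on both sides of 0, and the tRNA-Glu family runs from -1.85 to 1.32.

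Summits were closer to the upstream side of tRNA genes under the label heat shock. Of the 242 regions with 1 tRNA gene, the summit lay upstream of the gene at 157 and 186 (64.9% and 76.9%) under the label ubc9-6 and at 237 and 236 (97.9% and 97.5%) under the label heat shock. The labels did not overlap (exact permutation p = 0.33). Here 1 tRNA gene lay within 250 bp of a region's best summit, and a single list's summit and fold enrichment could belong to another gene. This was so at YNCG0028W in heat shock replicate 2, YNCN0017W in heat shock replicate 1 and TRR4 in both lists labelled ubc9-6. Summits within the first 20 bp of the gene made up 30.6% and 20.2% against 1.65% and 1.65%. The untreated WT lists had 69.4% and 59.6% upstream. The median summit was 13 bp before the first base in both lists labelled ubc9-6 and 16 bp before it in both labelled heat shock, so the medians were close and the second group of summits, inside the gene, made the difference.

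**Figure D5:**
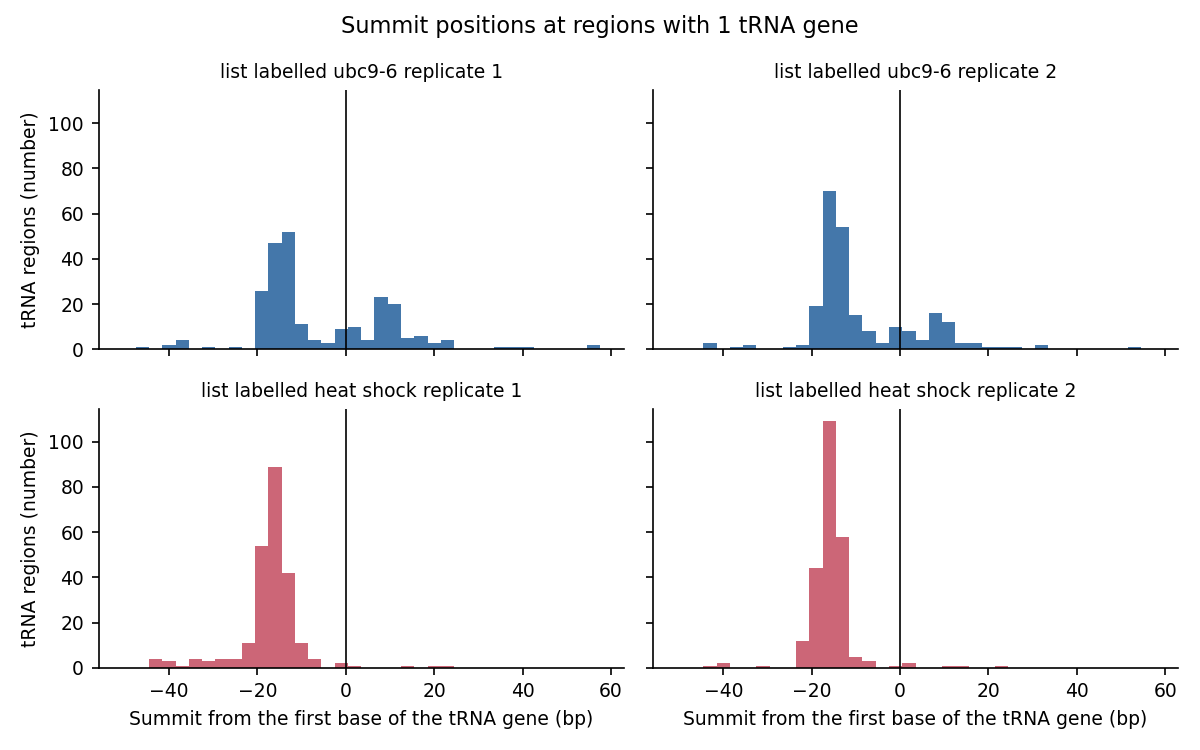
Number of regions with 1 tRNA gene by the distance of the summit from the first base of the gene (bp, negative is upstream), for each list by its label. Of 242 summits, 240 or 241 a list lie between -50 and 60 bp and are drawn. The lists labelled ubc9-6 have a second group of summits just inside the gene, which the lists labelled heat shock lack.

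At 42 regions the summit was at or after the first base of the gene in both lists labelled ubc9-6. At 36 of these it was upstream of the gene in both lists labelled heat shock, and the median shift was -26 bp. The 42 include TRR4, where the summits labelled ubc9-6 lay 405 and 393 bp after the first base, at RPL26A and not inside the tRNA gene. At the 143 regions where both lists labelled ubc9-6 had the summit upstream, the median shift was -1.5 bp. These groups were chosen by where the summit lay under one label, which by itself favours a shift in the first and not in the second, so their contrast is a description only. In SOE1, a tRNA-Glu gene, the summit was 10 bp after the first base in both lists of the label ubc9-6 and 18 bp before it in both labelled heat shock (limma adjusted p = 0.0133). YNCB0007W, a tRNA-Thr gene, shifted by -40.5 bp, from 24 and 26 to -16 and -15 bp. The bases crossed are the capitals printed above. SOE1 and YNCD0019C were chosen after their values were seen.

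Over the 259 regions with 1 peak in each list, the summit was upstream in the lists labelled heat shock at 23 (8.88%) and downstream at 3 (1.16%), by limma with the same threshold. With replicate number as a block, no shift passed this threshold, though only the numbers link the lists. The largest shift, -411.5 bp, was a change of gene. The region spans TRR4, a tRNA-Arg gene, and the promoter of RPL26A. Its summit was at 819014 and 819002 of chromosome XII, at RPL26A, under the label ubc9-6 and at 818596 and 818597, at TRR4, under the label heat shock (adjusted p = 0.00184). The next largest shifts were -46.5 bp at YNCN0003W, -41.5 bp at YNCK0007W and, downstream, 41 bp at YNCP0019W, genes of tRNA-Asn, tRNA-Lys and tRNA-Asn. The number of shifted regions rested on single lists. Without heat shock replicate 1 the counts were 0 upstream and 1 downstream, without heat shock replicate 2 they were 1 and 0, without ubc9-6 replicate 1 they were 9 and 1, and without ubc9-6 replicate 2 they were 34 and 2. The median distance between summits was 4 bp between the lists labelled ubc9-6, 2 bp between those labelled heat shock, and 3 to 6 bp between labels.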

How the data were processed

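SUMO immunoprecipitates of 4 samples were compared by their peak lists. Per the labels and methods, the authors used Bowtie2 2.3.5 (genome sacCer3) for alignment, and MACS2 2.1.1.20160309 compared each library with its own input. The deposited fold enrichment is a linear ratio over the local background, computed by the authors' peak caller with a pseudocount of 1. The deposited p-values and q-values are on the −log10 scale. The lists state no depth, so fragments at each summit were recovered from fold and p-value by inverting the Poisson test. Of 1906 peaks, 1891 (99.2%) gave a count within 0.05 of a whole number.

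Overlapping peaks (1 bp or more) formed regions, and a region was one-sided when both lists of a label and neither of the other held a peak. The RefSeq annotation of R64 holds 5865 non-RPG genes, 137 RPGs, 275 tRNA genes and 136 further noncoding genes. A summit was assigned, in order, to a tRNA gene within 250 bp, an RPG (800 bp upstream to 100 bp downstream of the start codon), another noncoding gene within 250 bp, a non-RPG gene (500 bp upstream to 200 bp downstream), or none. Sequences were read from the R64 genome.

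For regions in all 4 lists, limma 3.58.1 (R 4.3.3) was fitted to median-centred log2 fold enrichment and to summit positions oriented along the gene. Tables were made with Python 3.11.15, pandas 2.3.3, numpy 2.4.6 and scipy 1.17.1. The functions were tested on simulated data. Named genes were the 10 largest fold differences each way, the 10 best ranked one-sided regions and the 5 best of each class, the 5 largest summit shifts, the 5 best and 5 weakest shared regions, all regions one-sided to a label where there were 10 or fewer, and the gene lists. The comparison, members and lists were chosen with earlier results of these data known. Alternatives were the overlap, −log10 q, fold and list-length limits, gene assignment, centring, rank in place of fold, the replicate block and leaving out each list.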

Additional observations from a re-analysis of the deposited data

Results flagged for a closer look

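The list labelled heat shock replicate 1 held 24 peaks on the mitochondrial chromosome, outside the nuclear peaks compared here. Their fold enrichments were 1.07 to 1.47. The other list labelled heat shock, both lists labelled ubc9-6 and both untreated WT lists held none.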

How the results depend on the processing

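Alternatives changed no direction of a named region: 158 of 158 refits of a named fold difference stayed on their side of the threshold, and of 30 refits of a named summit shift 21 lost the call. Regions one-sided to heat shock numbered 25 with overlap of 50% of both intervals, 11 with summits within 150 bp, 3 at a −log10 q of 10 or more, 2 at a fold enrichment of 2 or more and 73 among the best 278 peaks of each list. With the best 278 peaks, 163 regions (153 of them tRNA) were in all 4 lists, 94 were one-sided to ubc9-6, and noncoding, non-RPG and other regions one-sided to ubc9-6 numbered 2, 3 and 3, with 0 heat-shock genes. At a fold enrichment of 2 or more, those classes numbered 14, 36 and 27, with 4 heat-shock genes, and at a −log10 q of 10 or more the other class numbered 50. Assigning each summit to its nearest gene gave 36 RPG, 217 non-RPG and 0 other regions one-sided to ubc9-6. Without centring, 46 regions were higher and 28 lower, and by percentile rank 81 and 70, with 7 calls turned. By rank, 123 of the 209 main calls were kept, and 33 of the 209 had the other sign.

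Leaving out each list in turn gave 262 to 296 regions in all 4 lists, 284 to 409 one-sided to ubc9-6 and 5 to 15 one-sided to heat shock (15 without heat shock replicate 1). Non-RPG regions numbered 83 to 130 and other regions 79 to 145, both highest without ubc9-6 replicate 1, and RPG regions 95 to 112. Higher fold calls ran from 91 to 103 and lower from 89 to 105, and summit calls from 0 to 34 upstream and 0 to 2 downstream. The labels share replicate numbers only: same-numbered lists had correlations of deviations of 0.238 (fold) and 0.38 (summits) over 2 pairs. With the replicate block, 102 regions were higher and 106 lower in fold, and 0 and 0 summits passed by limma, with 45 at an unadjusted p under 0.05 against 46 without the block. Depth limits peaks near the calling limit, where the fewest fragments at a summit were 162 to 177 in a list.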
